A study of Drosophila melanogaster with 4 samples.

Results

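The part described here is 500 compact clusters of JHDM1 enrichment on the fly autosomes. They were selected on the highest scores among those of 4000 bp or less on the arms 2L, 2R, 3L and 3R. A cluster is a region that the authors reported as significantly enriched, and the score is the value they deposited for it. The labels and headers give no unit for it. Members were taken from 4114 compact clusters on these arms in the list of the whole series, which held 8005 clusters in all. The 3614 compact clusters that were not chosen are called the others. JHDM1 had been immunoprecipitated with the antibody Q2634 from head nuclei of wild-type Oregon-R flies, mixed adults reared in population cages, whose heads were separated with sieves. The series held 2 replicates, each made of 1 ChIP library and 1 library of input chromatin. No treatment or mutant was compared, so the comparisons are between regions and between the replicates. Heads hold neurons, glia, fat body, muscle and eye cells, and strong enrichment in few cells cannot be told apart from weak enrichment in many. Coordinates are those of FlyBase release 5, and no genome of that release was used here, so members are named by position only.

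JHDM1 is a synonym of the fly gene Kdm2 (CG11033). Its protein carries a JmjC domain, the catalytic fold of a family of histone lysine demethylases, and in the fly it was described as a subunit of dRAF, a Polycomb group silencing complex that also ubiquitylates histone H2A. Mammalian KDM2 proteins bind CpG-rich DNA through a CXXC zinc finger. In ChIP-seq, short regions of strong enrichment are usually read as focal binding and broad ones as domains, a distinction that the deposited clusters carry only through their width and score.

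The scores of the members ran from 1.33 to 3.30 with a median of 1.74, against 0.0572 to 1.33 and a median of 0.535 in the others. The members were chosen by these values, which are given as a description. The threshold marked no break. The last member inside it, on 2R from 20630066 to 20632594, had a score of 1.3348, and the first cluster outside, on 3L from 21374336 to 21376914, had 1.3347. The same scores placed the members at percentiles from 85.5 to 99.7 over all 8005 clusters, which restates the choice by score.

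By width the members of the whole-series list fell into 2 kinds. There were 460 members between 2021 and 3993 bp, with a median of 2901 bp, and 40 members between 1001 and 1355 bp, with a median of 1028 bp. No member had a width between 1355 and 2021 bp, although 1004 of the others did, and the highest score among those was 1.30. The empty band was not shared by both replicates: the same rule applied to replicate 1 chose 11 clusters of those widths, with scores up to 3.82, and applied to replicate 2 it chose 0. The median score of all compact clusters fell from 0.502 in the band from 1000 to 1250 bp to 0.374 between 1500 and 1750 bp, and rose to 0.920 between 2250 and 2500 bp. Above that width it stayed between 0.866 and 0.966 in each band of 250 bp. Both kinds were chosen by score, so their place above the others of their width was set by the rule. The others of up to 2 kb had a median score of 0.430 and reached 1.296, and the short members started at 1.48. The others over 2 kb had a median score of 0.704 and reached 1.33, where the wide members started.

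**Figure D1:**
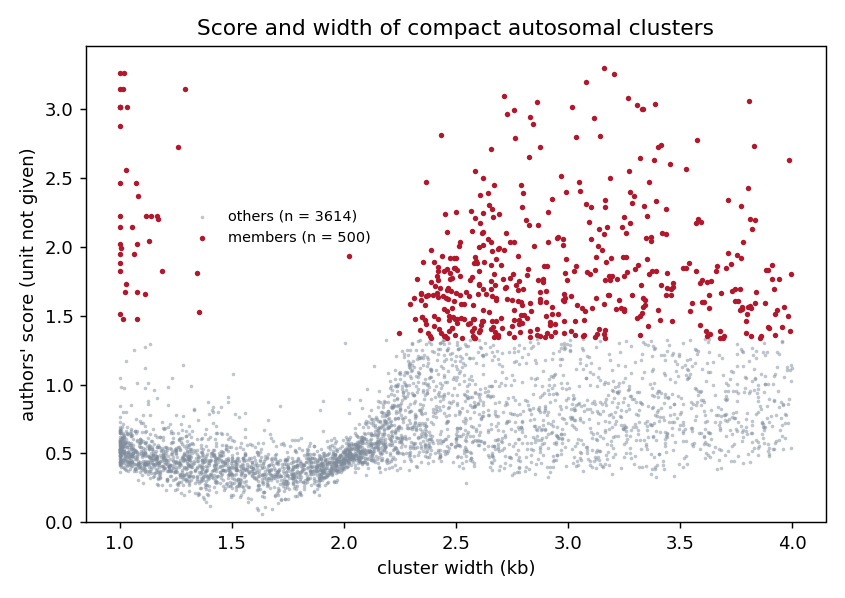
Authors' score (unit not given) against cluster width in kb for the 4114 compact clusters on 2L, 2R, 3L and 3R of the whole-series list, with each point a cluster. The 500 members (red) form a group of 460 above 2 kb and a separate group of 40 between 1001 and 1355 bp, with none in between.

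Among the others, 1673 of 3614 were up to 2 kb wide (46.3%, 95% Wilson interval 44.7 to 47.9%), against 40 of the 500 members (8.00%, 5.93 to 10.7%). The class from 2 to 3 kb held 51.8% of members and 36.2% of the others, and that from 3 to 4 kb held 40.2% and 17.5%. Over all widths the median was 2831 bp in members and 2063 bp in the others. Spearman's rho between width and score was 0.12 across the 459 members in both replicate lists and 0.46 across the 1777 others found in both, so the difference in width is not independent of the choice by score. Within the class from 3 to 4 kb the medians were close, at 3389 and 3442 bp.

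Both replicate lists held nearly all of the wide members. Of the 500 members, 459 touched a cluster of both replicates by at least 1 bp (91.8%, 95% Wilson interval 89.1 to 93.9%), against 1777 of the 3614 others (49.2%, 47.5 to 50.8%) and 54.4% of all compact clusters. Of the 460 wide members, 459 were in both lists (99.8%, 98.8 to 100.0%), against 1606 of 1941 others over 2 kb (82.7%). In the class from 2 to 3 kb the count was 258 of 259 members and 1036 of 1307 others, and from 3 to 4 kb it was 201 of 201 and 570 of 634. The exception lay on 2R from 18730574 to 18732594, was the narrowest of the wide members at 2021 bp, and touched neither list. The whole-series list and the replicate lists come from the same libraries, so these shares describe the members and are no independent evidence for them.

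None of the 40 short members was in both replicate lists, for which the 95% Wilson interval reaches 8.76%. An approximate upper limit of 3 counts in 40 gives 7.50%. Of these short members, 35 touched neither list, 4 touched replicate 1 only and 1 touched replicate 2 only. Among the others of up to 2 kb, 171 of 1673 were in both lists (10.2%, 8.86 to 11.8%) and 523 in neither (31.3%, 29.1 to 33.5%). Touching neither list was thus more frequent in the short members, at 87.5% (73.9 to 94.5%), than in the others of up to 2 kb. Of all compact clusters 13.7% touched neither. The widths compared were not alike, with a median of 1028 bp in the short members and 1429 bp in the others of up to 2 kb. The replicate lists held no cluster shorter than 1301 bp, and 38 of the 40 short members were shorter than that. The part of this limit in the result was not tested.

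**Figure D2:**
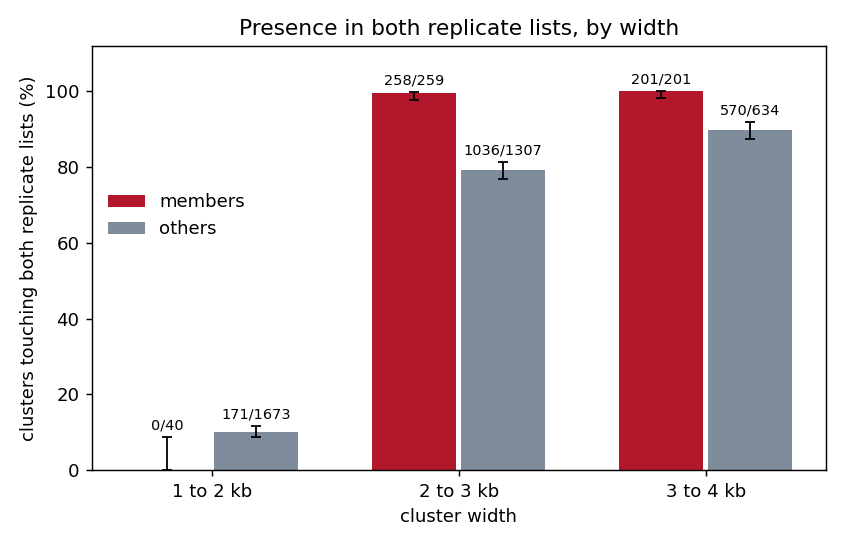
Share of compact clusters (%) that touched a cluster of both replicate lists, by width class, for members (red) and others (grey), with 95% Wilson intervals as bars and the counts above them. Members from 2 to 4 kb were in both lists in 459 of 460 cases, and short members in 0 of 40.

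Members of both kinds were among the highest scores. Of the 12 highest, 5 were short and 7 were wide. The highest-scoring member lay on 2L from 18011180 to 18014338, had a score of 3.30, and ranked 33 by score in replicate 1 and 34 in replicate 2. The next 2 were short and had the same score of 3.26, on 2L from 12067436 to 12068436 and on 2R from 569020 to 570036. Neither was in a replicate list, where the nearest clusters were 3082 bp away for the first and 1472 bp for the second. After these came a wide cluster on 3L from 18431098 to 18434304, ranked 31 in replicate 1 and 48 in replicate 2. It was followed on 3R by 15832568 to 15835648, ranked 59 and 29.

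The next 3 members shared a score of 3.14 and were short, on 2L from 13861348 to 13862360, on 3L from 24270340 to 24271630 and on 3R from 27110178 to 27111178. None of them was in a replicate list. The last 4 of the 12 were wide and were in both lists. On 3R they lay from 17866380 to 17869094 (ranks 72 and 44), from 25606860 to 25610666 (63 and 39) and from 18221514 to 18224374 (86 and 27), and on 3L from 14796774 to 14800040 (50 and 57). The 7 wide members of the 12 thus ranked between 31 and 86 in replicate 1 and between 27 and 57 in replicate 2, and the 5 short ones had no rank in either.

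The 14 shortest members had the same width of 1001 bp, the shortest among the compact clusters, which was shared by 44 of the others. In order of score the first 3 of these were the cluster on 2L at 12067436, that on 3R at 27110178 and one on 3L from 2318298 to 2319298, and all 3 were in neither list. The 5 short members found in a single list differed in the rank of their counterparts. The one on 3L from 23379812 to 23380812 matched a cluster of 1305 bp in replicate 1 that ranked 16 of 7836 by score. That on 2R from 571438 to 572510 matched a cluster of rank 105, and that on 3L from 19813434 to 19814516 one of rank 3332. The last, on 2R from 268446 to 269450, matched a cluster of rank 41, and none of these 4 had a counterpart in replicate 2. The one found in replicate 2 only, on 2L from 7066324 to 7067324, matched a cluster of 5787 bp that ranked 2241, at percentile 68.3.

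Where wide members had counterparts, these covered almost the same bases. In replicate 1 the shared part was 96.96% of the member's width at the median (quartiles 93.3 and 98.9%), and in replicate 2 it was 94.5% (89.0 and 97.6%). For the others over 2 kb found in both lists the medians were 93.0% and 88.5%. The midpoints of wide members and counterparts were 47.5 bp apart at the median in replicate 1 and 77.5 bp in replicate 2. For the others over 2 kb found in both lists they were 109 and 146 bp apart. Of the 500 members, 461 met a single cluster in replicate 1 and 455 did in replicate 2. A cluster of more than 4 kb was touched by 26 members in replicate 1 (5.2%, 95% Wilson interval 3.57 to 7.51%) and by 30 in replicate 2 (6.00%, 4.23 to 8.44%). These shares were near those of all compact clusters, at 5.76% and 5.88%.

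The scores of the counterparts were high in each library. The whole-series list and the replicate lists rest on the same libraries, so the choice by score largely fixed this contrast, and the values are a description. The counterpart stood at a median percentile of 92.2 in replicate 1 (quartiles 87.1 and 96.1, n = 463) and 90.8 in replicate 2 (80.2 and 96.1, n = 460). For the others the medians were 33.1 and 34.6. Of the 459 members in both lists, 366 stood above percentile 75 in both (79.7%), against 26 of the 1777 others (1.46%). The replicates did not contribute evenly to the low end. In replicate 1 none of the counterparts of members lay below percentile 50, and in replicate 2 there were 22. The lowest was on 3L from 17393242 to 17395488, at percentile 96.0 in replicate 1 and 2.70 in replicate 2. On 3R from 8419624 to 8422412 the percentiles were 96.2 and 9.48. In replicate 1 the lowest was 57.5, for the short member on 3L from 19813434 to 19814516, which had no counterpart in replicate 2. Among wide members the lowest there were 65.8 on 3L from 1400436 to 1402812 and 66.2 on 2R from 12978276 to 12981174. In replicate 2 these wide members stood at 94.4 and 93.5. These clusters were picked after their values were seen.

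**Figure D3:**
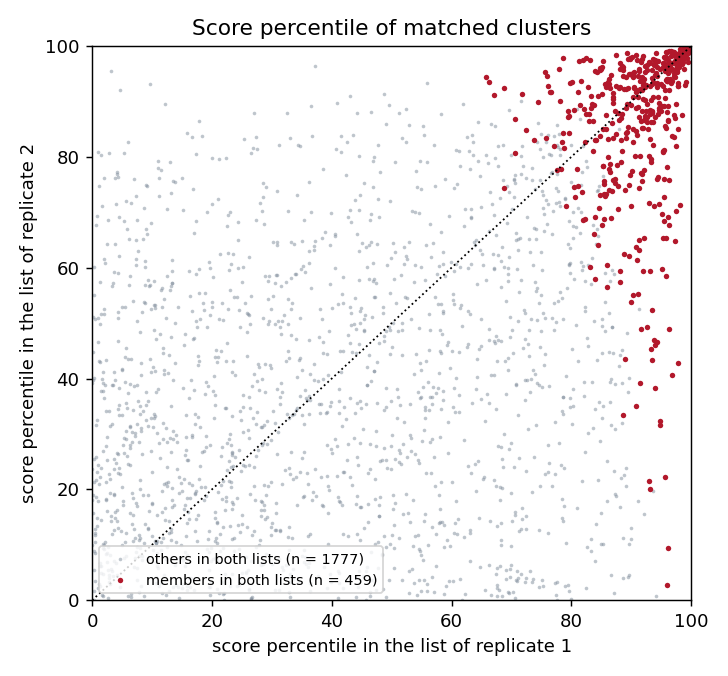
Percentile of the authors' score in the list of replicate 1 (x axis) and replicate 2 (y axis) for compact clusters found in both lists, with 459 members in red, 1777 others in grey and equality dotted. Members fill the upper right corner, and 22 counterparts fall below percentile 50 in replicate 2 but none in replicate 1.

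Within the members the order of the scores was only partly shared. Spearman's rho between the percentiles in replicates 1 and 2 was 0.41 across the 459 members in both lists and 0.19 across the 1777 others. The points share the same 2 libraries, and the members span a narrow range of percentiles in the whole-series list, from 85.5 to 99.7. Both values are therefore descriptions. The score in the whole-series list followed replicate 1 (rho 0.83) and replicate 2 (rho 0.77) in the members. In the others it followed replicate 1 (rho 0.82) and replicate 2 (rho 0.54).

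A reading of the pattern that does not rest on the whole-series list was made by applying the same rule to one replicate and looking in the other. Of the 500 compact autosomal clusters with the highest scores in replicate 1, 481 were found in replicate 2 (96.2%, 95% Wilson interval 94.1 to 97.6%). Of the 3845 others 2890 were (75.2%, 73.8 to 76.5%), and the background over all compact clusters was 77.6%. In the opposite direction 499 of 500 were found in replicate 1 (99.8%, 98.9 to 100.0%), against 2796 of 3610 (77.5%, 76.1 to 78.8%) and a background of 80.2%. The difference was 21.7 ± 0.93 percentage points (mean ± SD, n = 2 directions). Both directions compare the same pair of lists, so this SD is no spread between independent replicates. Its 95% Newcombe interval was 18.6 to 23.0 points in the first direction and 20.7 to 23.8 points in the second. Intervals cover counting error only and treat clusters as independent, and with 2 libraries a sign-flip test cannot give a two-sided p below 0.5, so no p-value is given. The clusters found stood at a median percentile of 90.0 and 90.7 in the replicate not used to choose them, against 52.2 and 48.5 for the others.

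The difference in sharing was smaller at like widths. In clusters over 2 kb it was 9.57 ± 1.66 points (SD, n = 2 directions), with 480 of 487 and 498 of 498 chosen clusters found. For the percentile it was close to that over all widths, at 36.6 ± 1.57 points (SD, n = 2 directions) against 40.0 ± 3.15. Short clusters were rare among the chosen ones, with 13 in replicate 1 and 2 in replicate 2. Of the 13 in replicate 1, 1 was found in replicate 2, and of the 2 in replicate 2, 1 was found in replicate 1. Of the 500 members, 342 (68.4%) touched a cluster chosen in replicate 1, 321 (64.2%) one chosen in replicate 2 and 243 (48.6%) one of each. The remaining 80 touched no chosen cluster. These counts do rest on the whole-series list, whose scores come from the same libraries, so the choice by score largely fixed them. They were not made for the others, so nothing particular to the members is read from them. Only 3 short members touched a cluster chosen in replicate 1 and 0 one chosen in replicate 2. The lists chosen in the replicates shared 260 clusters, or 52.0% of each.

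The members were more isolated than the others. The gap to the nearest cluster of any width on the same arm was 3393 bp at the median in members (quartiles 1075 and 12080 bp) and 1611 bp in the others (493 and 5210 bp), a ratio of 2.11. A gap of 10 kb or more was found for 139 members (27.8%, 95% Wilson interval 24.1 to 31.9%) and 516 others (14.3%, 13.2 to 15.5%), against 15.9% of all compact clusters. The difference was 13.5 points (95% Newcombe interval 9.59 to 17.8). It had the same direction on each arm, with 28.2% of members against 16.8% of others on 2L, 24.8 against 11.8% on 2R, 36.8 against 14.6% on 3L and 22.9 against 13.98% on 3R.

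The members were also more isolated within each width class. Among clusters from 2 to 3 kb the median gap was 4023 bp in members and 1687 bp in the others, and from 3 to 4 kb it was 2457 and 1006 bp. A gap of 10 kb or more was found for 23.4% of members and 5.99% of the others in the widest class, a difference of 17.4 points (11.7 to 23.9). In the class from 2 to 3 kb it was 29.3 against 18.0%, a smaller difference of 11.4 points (5.72 to 17.5). Up to 2 kb it was 40.0 against 14.5%, a difference of 25.5 points (11.7 to 41.0). The short members had the widest median gap, at 6274 bp against 1815 bp in the others of up to 2 kb. On the more distant side the gap was 19124 bp at the median in members and 9424 bp in the others. Within 50 kb of their midpoint members had a median of 6 further clusters and others 8. Those clusters covered 24.2% of the surrounding sequence at the median in members and 30.6% in the others.

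The gap was larger in the first 100 ranks of the set than in its last 100, but its relation to score was weak. Spearman's rho between gap and score was 0.12 across the 459 members in both lists and 0.11 across the 1777 others in both. Among wide members the gap was 5221 bp at the median in the 80 of the first 100 ranks and 2297 bp in the 99 of the last 100. In ranks 501 to 600, just outside the set, it was 2041 bp, and in ranks 2001 to 4114 it was 1247 bp. Between these ends the order was not strict, with 2803, 4077 and 2807 bp in the 3 bands of 100 ranks between. The same rule applied to each replicate alone gave a gap of 10 kb or more in 29.0% of chosen and 15.3% of other clusters in replicate 1, and in 24.2 and 15.7% in replicate 2. That is a difference of 11.1 ± 3.71 points (SD, n = 2), and the gaps there were measured within the same replicate list.

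**Figure D4:**
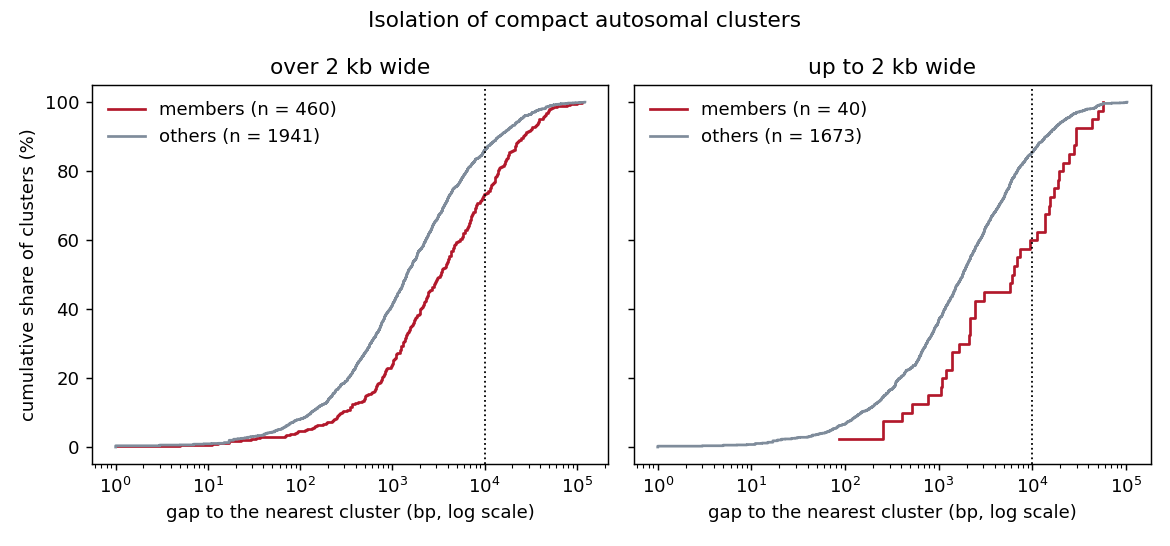
Cumulative share of compact clusters (%) against the gap to the nearest cluster (bp, log axis), for clusters over 2 kb (left) and up to 2 kb (right), members in red and others in grey, with 10 kb dotted. The curves of members lie to the right in both panels, with median gaps of 3354 against 1433 bp and 6274 against 1815 bp.

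The most isolated member lay on 3R from 11489402 to 11493388, with no cluster for 114599 bp on one side and 118153 bp on the other. Its score was 2.63, and it ranked 117 in replicate 1 and 73 in replicate 2. The next were on 3L from 4974700 to 4977626, with a nearest gap of 100125 bp, and on 3R from 23971330 to 23973950, with 96827 bp. They were followed on 2L by 17258890 to 17261830 (83995 bp) and on 2R by 13893202 to 13897018 (77347 bp). All 5 were wide and were in both replicate lists, but the last 3 stood at percentiles of 59.3, 65.4 and 46.9 in replicate 2, against 93.2, 92.1 and 93.8 in replicate 1. The list of replicate 2 held clusters nearer to 3 of them, at 26807 bp from the first on 3L, 19994 bp from that on 2L and 11003 bp from that on 2R. In total 17 members had no other cluster within 50 kb (3.40%), as did 42 of the others (1.16%).

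The gap from a member to the next member, which depends on the number chosen per Mb, was 65157 bp at the median, and 175 members had none within 100 kb. No such gap was computed for other clusters, so nothing particular to the members is read from it. For 62 members (12.4%) the next lay within 10 kb. The closest pair was on 3R, where clusters from 10193896 to 10196968 and from 10196982 to 10200590 were separated by 13 bp, and the replicates also listed them as 2 separate clusters each. A pair on 2R from 7533850 to 7537606 and from 7537856 to 7541380 was 249 bp apart and ranked 856 and 145 in replicate 1 and 547 and 132 in replicate 2. The next pair was short, on 3L from 24270340 to 24271630 and from 24271886 to 24272964, and in neither replicate list. These pairs were picked after their values were seen.

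Along the chromosomes the members were spread over all 4 arms. There were 117 members on 2L, 129 on 2R, 114 on 3L and 140 on 3R. Per Mb this was 5.08 on 2L, 6.10 on 2R, 4.64 on 3L and 5.02 on 3R. As a share of the compact clusters on the arm, members made up 12.6% on 2L (95% Wilson interval 10.6 to 14.8%), 13.1% on 2R (11.1 to 15.4%), 10.6% on 3L (8.94 to 12.6%) and 12.4% on 3R (10.6 to 14.5%). Of all members 22.8% were on 3L, against 26.5% of all others, a difference of −3.68 points (95% Newcombe interval −7.44 to 0.45), and on each of the other arms the interval of the difference also included 0. When the rule was applied to each replicate, 2R again had the highest number per Mb (5.53 and 6.05). The arm with the lowest differed, with 2L at 4.95 in replicate 1 and 3R at 4.62 in replicate 2. As a share of the compact clusters on the arm, 2R was the lowest in replicate 1, at 10.96%. In replicate 2 it stood at 13.14%, close to 2L at 13.13%.

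Each of the 95 full 1 Mb bins of these arms held at least 1 member, with a median of 5. The densest bins of each arm were 2R from 12 to 13 Mb with 13 members of 50 compact clusters, and 2L from 7 to 8 Mb with 12 of 59. On 3L the bins from 11 to 12 and from 14 to 15 Mb had 9 each, and on 3R those from 1 to 2 and from 26 to 27 Mb did. The variance of the count over the full bins was 5.85, against a mean of 5.18. Bins with many other compact clusters did not hold many more members, with a Spearman's rho of 0.19 across the 95 bins.

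**Figure D5:**
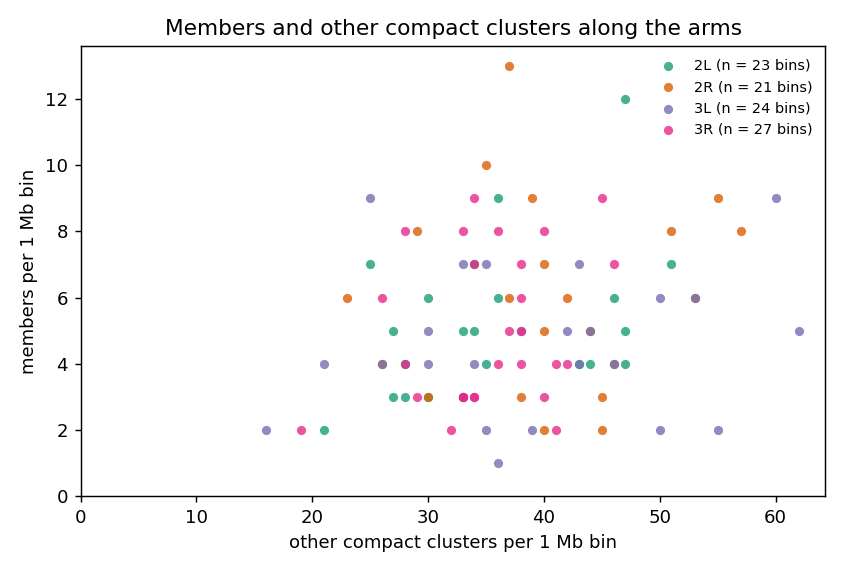
Number of members against number of other compact clusters in each of the 95 full 1 Mb bins, coloured by arm. Counts of members run from 1 to 13 per bin, and the 2 highest are on 2R (13) and 2L (12).

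The densest bin shows how the members of one stretch varied. From 12 to 13 Mb on 2R, 12 of the 13 members were wide and were in both lists, with scores from 1.34 to 2.07. The highest-scoring of these, from 12222410 to 12225758, ranked 288 in replicate 1 and 325 in replicate 2. It was followed by the cluster from 12860238 to 12863148, ranked 303 and 283. The remaining member, from 12431304 to 12432432, was short, had a score of 2.04, and was in neither list. A neighbouring pair of members, from 12272980 to 12275400 and from 12285326 to 12287786, lay 9925 bp apart, with nothing listed for 98927 bp beyond the second. The wide members of the bin thus ran from the upper part of the set to the lower edge of it, where the cluster from 12457320 to 12460486 was the 498th by score.

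Near the ends of the arms no difference between members and others was detectable. Within 2 Mb of the centromeric end of the assembled arm lay 37 members (7.40%) and 241 others (6.67%), against 6.76% of all compact clusters, a difference of 0.73 points with a 95% Newcombe interval from −1.43 to 3.47. Within 2 Mb of the telomeric end lay 9.00 and 8.63%, a difference of 0.37 points (−2.04 to 3.33). The 2 kinds of members were placed differently. Of the 40 short members, 13 (32.5%, 95% Wilson interval 20.1 to 48.0%) were within 2 Mb of a centromeric end, against 127 of the 1673 others of up to 2 kb (7.59%, 6.42 to 8.96%). Of the 460 wide members 24 were (5.22%, 3.53 to 7.65%), against 114 of 1941 others over 2 kb (5.87%). Of the 13 short members, 11 lay in the last 1 Mb. That is 27.5% of the 40 short members (16.1 to 42.8%), against 48 of the 1673 others of up to 2 kb (2.87%, 2.17 to 3.78%).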

How the data were processed

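The authors deposited 3 lists of enriched clusters, 1 per ChIP replicate and 1 for the whole series, with a start, an end and a score for each cluster. The aligner Bowtie 0.12.7 is named per the submitters' processing notes. The coordinate system is FlyBase release 5, per the file headers. The caller, its thresholds, the unit of the deposited score and the read depth are not given in the sources used here, so scores were ranked within a list only. Nothing in the labels says whether replicates came from separate fly populations, so their spread may be technical. Input libraries were not analysed separately here.

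Clusters of different lists were called shared at 1 bp or more in common, and the counterpart of a cluster is the one with the most bases in common. Percentiles were taken over the whole list. Gaps run between facing edges. Width classes were 1 to 2, 2 to 3 and 3 to 4 kb. The members, measures and width classes were chosen with earlier results of these data known. Named clusters are the 12 highest scores, the 5 largest gaps, the 3 highest-scoring members in neither list and in 1 list, the 3 shortest, the densest 1 Mb bins with the members of the first, and those beside the threshold. No sequence or gene annotation was used, because the gene table at hand is that of Release 6. The overlap, gap and interval code was tested on simulated data. Tables were handled with pandas 2.3.3 and numpy 2.4.6 under Python 3.11.15, intervals were checked with scipy 1.17.1, and figures were drawn in matplotlib 3.10.9.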

Additional observations from a re-analysis of the deposited data

How the results depend on the processing

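Of 79 alternative values over 9 results, 54 stayed within the spread set for the result and 25 moved beyond it. This spread was its 95% interval, or 1 SD between replicates or between the 2 directions of the same pair of lists. Of the values that moved beyond it, 1 had the opposite sign, the difference near centromeric ends in replicate 2. The interval of the value reported for that difference includes 0. Within this interval the difference also changed sign, to −0.20 points at 3000 bp or less, −0.08 at 5000 bp or less, −0.66 over 2 kb and −0.46 in replicate 1. The share of members in both replicate lists was 86.8% for the highest 250 scores and 99.8% for clusters over 2 kb, an alternative chosen after seeing the data. The difference from the others was 34.5 points for the highest 250 scores, 52.1 for the highest 1000, 53.0 at 3000 bp or less, 37.2 at 5000 bp or less and 17.0 over 2 kb. It was 46.8 points at an overlap of 50% of a cluster's own width, 48.0 at reciprocal 50%, 28.7 without replicate 1, 21.4 without replicate 2 and 13.8 with the others weighted to the widths of the members. The difference in gaps was 8.10 points at 20 kb or more. The ratio of median gaps was 1.65 with neighbours from replicate 2 and 1.47 between centres. The difference in median width was 302 bp over 2 kb, and, from the widths of the counterparts of the same clusters, 525 bp in replicate 1 (without replicate 2) and 572 bp in replicate 2 (without replicate 1). With the rule applied to a single replicate list, the difference near centromeric ends was −1.69 points in replicate 2 (without replicate 1) and −0.46 in replicate 1 (without replicate 2). That in percentile was 52.7 for the highest 1000 scores and 51.7 over 2 kb, against 57.7. For the rule applied to one replicate and read in the other, the difference found was 28.6 points at 50% of own width, 19.9 for the highest 250 scores and 8.08 with widths weighted. The Spearman rank correlation between the percentiles in the 2 replicates was 0.50 for the highest 1000 scores. The cause of these shifts was not tested. No paired analysis was possible because the lists used here give ChIP enrichment only and hold no input value to set against a ChIP value of the same number. Tests of gene 5′ ends and base composition were not run, since no genome of release 5 was used, and the unknown read depth limits what can be said of clusters missing from a list.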

Other observations

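The scores of the short members repeated each other. The 40 short members had 24 different scores, and 35 of them (87.5%) shared their score with at least 1 other cluster of the whole-series list. Of the 460 wide members 5 did (1.09%), as did 597 of the 1673 others of up to 2 kb (35.7%) and 189 of the 1941 others over 2 kb (9.74%). The score 3.02 was held by 4 short members and by 10 clusters of the whole list, and 2.22 by 4 and 7. Several of these values lay a whole number apart, such as 3.02 and 2.02, 3.14 and 2.14, 2.88 and 1.88, and 2.73 and 1.73. Within a tolerance of 1e-06, 35 of the 40 short members had a score that differed by a whole number from another score of the list, against 32 of 460 wide members (6.96%), 117 of 1673 others of up to 2 kb (6.99%) and 36 of 1941 others over 2 kb (1.85%). These counts were made after the repeated values were seen.

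Short clusters of high score were also listed in replicate 1. Of the 13 clusters of up to 2 kb among its 500 highest compact scores, 84.6% had a gap of 10 kb or more and 53.8% lay within 2 Mb of a centromeric end, against 17.0% and 7.94% of the others of that width. In replicate 2 there were 2 such clusters, of which 50% had a gap of 10 kb or more and 0% lay within 2 Mb of a centromeric end. For the others of that width in replicate 2 these shares were 17.6% and 6.78%. Of the compact clusters of replicate 2 between 1355 and 2021 bp, 0 were among its 500 highest, against 11 in replicate 1.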
